A study of Solanum tuberosum with 8 samples.

Results

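The 48 genes described here are those with much more transcript in buds of dormant potato tubers (Solanum tuberosum) than in buds that had left dormancy, out of 19664 tested and 35091 listed genes. They were chosen on the deposited group values themselves. A gene was taken if the authors had tested it, if its dormant value was at least 20 FPKM (fragments per kilobase of transcript, scaled to sequencing depth), and if its value in nondormant meristems was above 0 and at least 5-fold lower. Loci starting in 3 stretches were left out, on chromosome 1 at 1 to 2 Mb, chromosome 3 at 16 to 21 Mb and chromosome 4 at 6 to 7 Mb, which removed a further 9 genes that met these limits. Direction, fold and level are therefore properties of the choice, and the values below that rest on them are a description with no test.

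RNA of excised meristems was sequenced in 8 samples of the cultivar Russet Burbank, grown in the field in the Red River Valley of North Dakota. The 4 nondormant samples were collected in the springs of 2006, 2008, 2010 and 2011 from tubers kept at 4 °C until the first sprouts were visible. The 4 dormant samples were collected in the falls of 2005, 2007, 2009 and 2010, about 2 weeks after harvest. By these years, each nondormant collection was made in the spring after 1 of the dormant collections, which gives 4 pairs. The groups differ in storage time, cold, season and set of collection years as well as in bud state, and these cannot be told apart. Only 1 value per gene and group is given, so no sample can be shown on its own, no replicate error can be stated for any level or fold, and whether samples of the groups overlap cannot be seen. In such bulk tissue, fewer cells of a type and less RNA per cell cannot be told apart either.

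A tuber bud, or eye, holds a shoot meristem whose growth is arrested during dormancy although conditions would allow it. Abscisic acid is needed to hold potato buds in this state, while cytokinins and gibberellins promote its end and the outgrowth of the sprout. The deposited table holds gene identifiers but no names, and 0 of these matched the RefSeq gene table of assembly SolTub_3.0, so no gene here can be given a name, a role or a sequence, and the tissue label could not be checked against marker genes. Genes are given by position as the deposited table prints it; the sources used here do not give its genome build.

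The choice passed through 2 limits. Of the tested genes, 6873 (35.0%) had at least 20 FPKM in dormant meristems, and 224 were at least 5-fold lower in nondormant meristems. Both limits were met by 57 genes, of which 4 on chromosome 3, 5 on chromosome 4 and 0 on chromosome 1 fell in the stretches left out. In the authors' deposited table all 48 genes were called at a q of 0.05 or less, where 3.75% of all tested genes were called lower in nondormant meristems and 6.75% of those with at least 20 FPKM in dormant meristems. Nothing is read from this count, since the rule used the same contrast. Among genes with at least 20 FPKM in dormant meristems and a value above 0 in nondormant meristems, 4.43-fold was the highest fold that the authors' deposited table left uncalled.

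**Figure D1:**
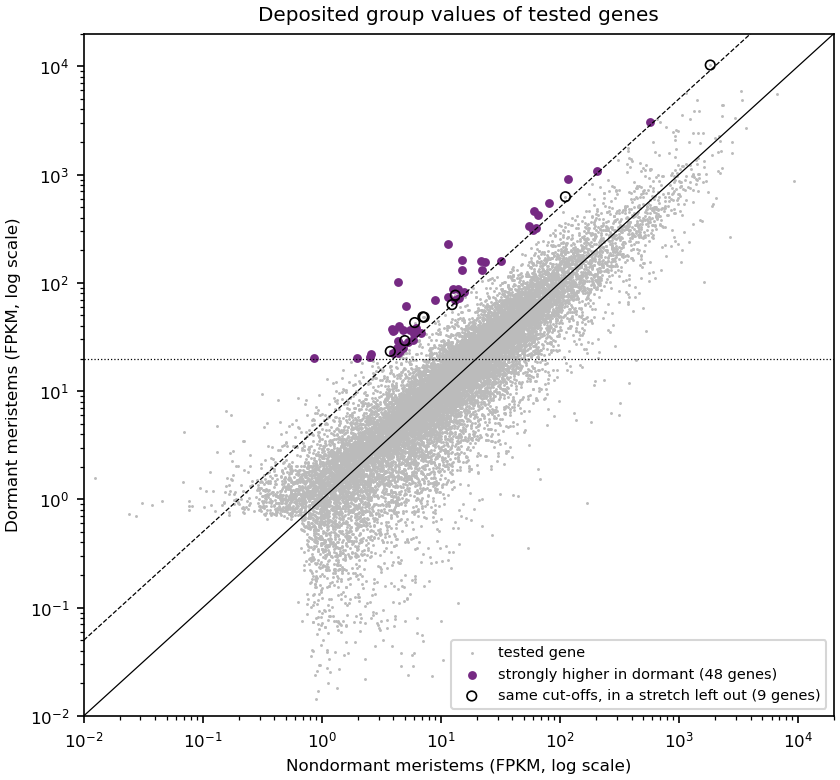
Deposited FPKM of tested genes in nondormant (x) and dormant (y) meristems, both on log scales, for genes with at least 0.01 FPKM in both groups. Filled points are the 48 genes, open circles the 9 genes left out by position; the solid line is equality, the dashed line a 5-fold lower nondormant value and the dotted line 20 FPKM. The 48 genes lie above the dashed line from 20.3 FPKM up to 3088 FPKM in dormant meristems.

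The 48 genes had a median of 6.55 FPKM in nondormant meristems (quartiles 4.44 and 22.0) and of 65.2 FPKM in dormant meristems (quartiles 29.0 and 158). Their folds had a median of 6.46, with quartiles of 5.34 and 8.26. On the log2 scale the median ratio of nondormant over dormant was -2.69, where the median of all tested genes was -0.05. The folds crowded towards the lower limit. Between 5- and 6-fold lay 19 genes, between 6- and 10-fold 23 genes, and at least 10-fold 6 genes. Together the 48 genes made up 0.191% of the summed nondormant FPKM and 1.17% of the summed dormant FPKM.

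Low values in nondormant meristems were few, and the rule bears on this. With at least 20 FPKM in dormant meristems, a nondormant value under 1 FPKM takes a fold above 20, and genes at 0 are left out. Tested genes at least 5-fold lower in nondormant meristems but under 20 FPKM in dormant ones had a nondormant median of 0.48 FPKM. Their own limits keep these values low (highest 3.11 FPKM), so this difference in level is also set by the choice. In nondormant meristems 47 of the 48 genes reached 1 FPKM and 30 reached 5 FPKM. Ranked among the tested genes of each state, the genes stood at a median percentile of 36.0 in nondormant meristems and of 88.0 in dormant meristems. In nondormant meristems 26 of them were below the median of the tested genes (11.3 FPKM) and 22 above it. In dormant meristems 0 were below that median (11.4 FPKM), as the level limit of the rule requires. The spread of ranks was wider in nondormant meristems, with quartiles at percentiles 27.9 and 67.6, than in dormant meristems, with quartiles at percentiles 74.2 and 95.3. The level limit applies to dormant meristems alone.

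**Figure D2:**
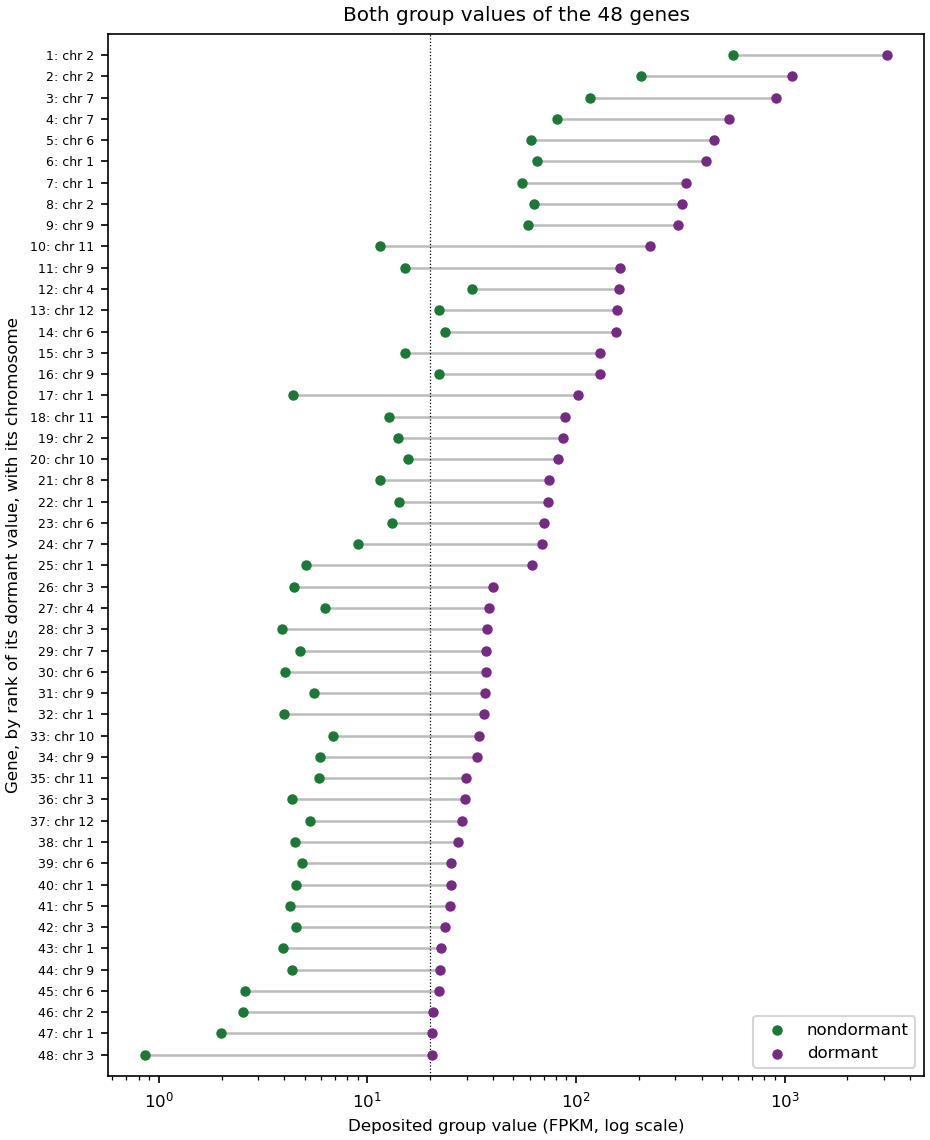
Deposited FPKM (log scale) of each of the 48 genes in nondormant (green) and dormant (purple) meristems, ordered by the dormant value, with the rank and chromosome at the left and a dotted line at 20 FPKM. The gap between the points of a row is the fold, 5.02 to 23.5, and its width does not follow the order of levels; 13 genes stay at or above 20 FPKM in nondormant meristems.

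The most abundant of the 48 transcripts were among the most abundant of the tissue. PGSC0003DMG400029732, on chromosome 2 between 32118854 and 32119901, had 568 FPKM in nondormant against 3088 FPKM in dormant meristems (5.44-fold). PGSC0003DMG400022388, on the same chromosome between 32529355 and 32530606, had 205 FPKM in nondormant against 1082 FPKM in dormant meristems (5.27-fold). Their starts lie 411 kb apart, and in nondormant meristems they stood at percentiles 98.9 and 96.3 of the tested genes. A locus on chromosome 7 between 6868884 and 6870643 had 117 FPKM in nondormant against 912 FPKM in dormant meristems (7.81-fold). It had the highest test statistic of the 48 genes in the authors' deposited table, 6.11, a score whose positive sign means higher in dormant meristems.

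Another chromosome 7 locus, between 51725436 and 51726065, had 80.9 FPKM in nondormant against 542 FPKM in dormant meristems (6.71-fold). A chromosome 6 locus between 52389133 and 52389919 had 60.6 FPKM in nondormant against 460 FPKM in dormant meristems (7.58-fold). These loci are short, spanning 629 and 786 bp. On chromosome 1, the locus between 65834264 and 65838768 had 65.3 FPKM in nondormant against 421 FPKM in dormant meristems (6.45-fold), and the locus between 60174318 and 60175689 had 55.1 FPKM in nondormant against 338 FPKM in dormant meristems (6.13-fold). The eighth by dormant level, on chromosome 2 between 34118113 and 34122254, had 63.2 FPKM in nondormant against 324 FPKM in dormant meristems (5.13-fold). These 8 genes held 75.2% of the summed nondormant FPKM of the 48 genes and 71.8% of their summed dormant FPKM, so values summed over the 48 genes mostly describe these 8. Each of them still had at least 55.1 FPKM in nondormant meristems, and none differed by more than 7.81-fold.

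Close below them was a chromosome 9 locus between 13066923 and 13069946, with 59.2 FPKM in nondormant against 309 FPKM in dormant meristems (5.23-fold). The next 8 genes ranged from 4.39 to 31.9 FPKM in nondormant meristems and from 102 to 227 FPKM in dormant meristems. This class held 3 of the 6 folds of at least 10. A further 8 genes ranged from 5.06 to 15.6 FPKM in nondormant meristems and from 61.4 to 88.6 FPKM in dormant meristems. The largest class by number was the lowest by level. Its 23 genes ranged from 0.864 to 6.86 FPKM in nondormant meristems, with a median of 4.46 FPKM, and from 20.3 to 40.1 FPKM in dormant meristems, with a median of 28.4 FPKM. Over the 48 genes, Spearman's rho between fold and dormant level was -0.0013, given as a description because both come from the values that chose the genes.

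The largest fold belonged to the gene with the lowest value in both states. This locus, on chromosome 3 between 43352737 and 43353841, had 0.864 FPKM in nondormant against 20.3 FPKM in dormant meristems (23.5-fold, q = 0.00306 in the authors' deposited table). It is the one gene of the 48 below 1 FPKM in nondormant meristems, and with 1 FPKM added to both values its log2 ratio is -3.52 in place of -4.56. A fold nearly as large was found at a higher level on chromosome 1 between 80055735 and 80056866, with 4.39 FPKM in nondormant against 102 FPKM in dormant meristems (23.4-fold). On chromosome 11 between 12252235 and 12253052 the values were 11.5 FPKM in nondormant against 227 FPKM in dormant meristems (19.7-fold). The chromosome 1 locus stood at percentile 27.7 of the tested genes in nondormant meristems, against 92.7 in dormant meristems, and the chromosome 11 locus at 50.4 in nondormant meristems, against 96.9 in dormant meristems.

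The next folds were well below these. A chromosome 1 locus between 51677352 and 51681073 had 5.06 FPKM in nondormant against 61.4 FPKM in dormant meristems (12.1-fold). A chromosome 9 locus between 51763184 and 51765255 had 15.2 FPKM in nondormant against 162 FPKM in dormant meristems (10.7-fold). On chromosome 1 between 67228289 and 67229367, the values were 1.98 FPKM in nondormant against 20.4 FPKM in dormant meristems (10.3-fold). Of the 6 genes with at least 10-fold differences, 3 were thus on chromosome 1. On chromosome 6 between 52942837 and 52949623, a locus of 6786 bp had 4.01 FPKM in nondormant against 36.9 FPKM in dormant meristems (9.19-fold).

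The strength of the authors' statistics varied among genes of like fold. Of the 48 genes, 41 had the smallest p of the authors' deposited table, 5e-05 (q = 0.00179), which 549 tested genes share and which therefore does not rank them. The test statistic ran from 1.98 to 6.11, with a median of 3.43. Among 7 genes with folds between 7.58 and 8.66, the statistic in the authors' deposited table ran from 2.44 to 6.11. The lowest of these belonged to a chromosome 3 locus between 43002241 and 43004427, with 15.1 FPKM in nondormant against 131 FPKM in dormant meristems (8.66-fold, q = 0.00594).

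Of the 48 genes, 45 had a q under 0.01 in the authors' deposited table, as did 1.56% of all tested genes in the same direction; nothing is read from this, since the rule used this contrast. In 3 genes the deposited q was 0.01 or more. One is the shortest locus of the 48, 375 bp on chromosome 1 between 56817171 and 56817546, with 4.51 FPKM in nondormant against 27.2 FPKM in dormant meristems (6.03-fold, q = 0.0256 in the authors' deposited table). Another lies on chromosome 9 between 5035285 and 5039270, with 4.38 FPKM in nondormant against 22.4 FPKM in dormant meristems (5.12-fold, q = 0.0172 in the authors' deposited table), and has the lowest test statistic of the 48, 1.98. The last is a chromosome 6 locus between 52396752 and 52397519, with 13.2 FPKM in nondormant against 70.1 FPKM in dormant meristems (5.33-fold, q = 0.0112 in the authors' deposited table).

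The limits of the rule cut through a continuous range. Just inside the fold limit were loci on chromosome 10 between 1973246 and 1974764 (5.02-fold), chromosome 4 between 48701440 and 48702249 (5.04-fold) and chromosome 11 between 3251877 and 3254501 (5.12-fold). Just outside it were loci on chromosome 12 between 1010683 and 1012186 (4.98-fold), chromosome 1 between 6376019 and 6376719 (4.97-fold) and chromosome 3 between 38215794 and 38220034 (4.84-fold). At the level limit, the lowest dormant values inside were 20.3, 20.4 and 20.7 FPKM. The highest outside were 19.5, 18.9 and 18.8 FPKM, in genes that were 7.04- to 10.6-fold lower in nondormant meristems. The first of these, on chromosome 8 between 3481193 and 3483932, was not called in the authors' deposited table (q = 0.675). One tested gene, on chromosome 5 between 8560393 and 8566904, had 20.5 FPKM in dormant meristems and is listed at 0 in nondormant meristems. The rule leaves it out and the authors' deposited table did not call it (q = 0.291).

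The 48 genes lay on all 12 chromosomes. Chromosome 1 held 10 of them (20.8%, against 12.7% of the tested genes), and chromosomes 3, 6 and 9 held 6 each. Chromosomes 5 and 8 held 1 each. Per 1000 tested genes the number ran from 0.737 on chromosomes 5 and 8 to 4.14 on chromosome 9, with 2.44 over all chromosomes. The rule bears on these numbers. The 4 genes on chromosome 3 and the 5 on chromosome 4 left out by position are not counted. The tested genes of the stretches are still in the totals, so the numbers for chromosomes 3 and 4 are lowered by the choice. The counts are small, and whether chromosomes differ was not tested. The gene density around them was close to that of the table as a whole, with a median of 84.5 listed genes within 500 kb of their start, against 84 for all tested genes.

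Most of the 48 genes stood alone. No other gene of the set lay within 100 kb of 40 of them, and the other 8 formed 3 local groups on chromosomes 3, 6 and 9. The rule bears on this as well. It left out by position 5 genes on chromosome 4, between 6511865 and 6526415, that met the same limits. Of the 3 groups that remain, the group on chromosome 6 is the largest, with 4 genes within 15.5 kb, between 52389133 and 52404584. Besides the 2 already given, it includes a locus between 52400988 and 52401714 with 2.58 FPKM in nondormant against 22.0 FPKM in dormant meristems (8.53-fold), and a locus between 52403750 and 52404584 with 23.5 FPKM in nondormant against 155 FPKM in dormant meristems (6.61-fold). All 4 are under 1 kb long, and their dormant values span 22.0 to 460 FPKM, while the folds span 5.33 to 8.53.

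Genes between and beside these 4 loci did not all share the pattern. The tested locus that separates the first from the second, at 52392736 to 52393454, had 36.7 FPKM in nondormant against 76.7 FPKM in dormant meristems (2.09-fold) and was not called in the authors' deposited table (q = 0.350). Directly before the group, the locus between 52385440 and 52388733 went the other way, with 16.1 FPKM in nondormant against 6.34 FPKM in dormant meristems (log2 ratio 1.34, q = 0.0378 in the authors' deposited table). Directly after it, the locus between 52407318 and 52411861 had 11.0 FPKM in nondormant against 13.1 FPKM in dormant meristems (q = 0.762 in the authors' deposited table).

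On chromosome 3, 2 genes of the set lie within 5.76 kb. The locus between 962303 and 963259 had 4.46 FPKM in nondormant against 40.1 FPKM in dormant meristems (log2 ratio -3.17), and the locus between 967147 and 968064 had 3.89 FPKM in nondormant against 37.5 FPKM in dormant meristems (9.65-fold). The gene that separates them, at 964567 to 965580, was under the level limit but differed alike, with 1.59 FPKM in nondormant against 9.79 FPKM in dormant meristems (6.16-fold, q = 0.00409 in the authors' deposited table). Downstream, a tested locus between 978608 and 979626 had 0.106 FPKM in nondormant against 1.19 FPKM in dormant meristems and was not called (q = 0.102 in the authors' deposited table). The 5 untested genes within 20 kb of the group were all listed under 1 FPKM in both states, each with the lower value in nondormant meristems.

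On chromosome 9, 2 neighbouring genes lie within 4.70 kb. Between 40488009 and 40489373 the values were 5.91 FPKM in nondormant against 33.4 FPKM in dormant meristems (5.64-fold), and between 40490796 and 40492712 they were 5.55 FPKM in nondormant against 36.6 FPKM in dormant meristems (6.59-fold). The gene directly before them, between 40485343 and 40486658, had 1.59 FPKM in nondormant against 10.3 FPKM in dormant meristems (6.47-fold, q = 0.00671 in the authors' deposited table). Directly after them, the gene between 40497321 and 40498095 had 0.906 FPKM in nondormant against 3.25 FPKM in dormant meristems (3.59-fold) and was not called (q = 0.0656 in the authors' deposited table). In both the chromosome 3 and the chromosome 9 group, all tested genes within 20 kb had the lower value in nondormant meristems. Whether such adjacent genes share sequence, and so reads, was not tested.

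**Figure D3:**
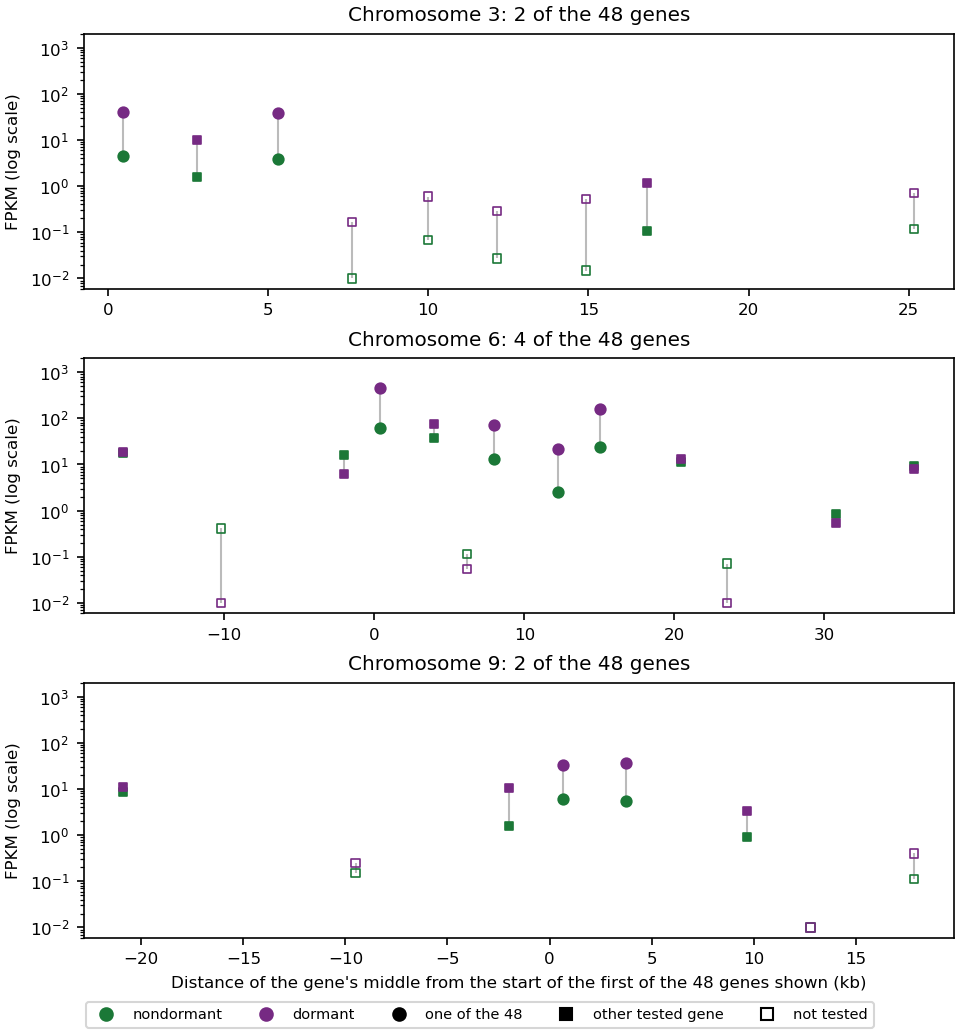
Deposited FPKM (log scale) of every listed gene within 20 kb of the local groups on chromosomes 3, 6 and 9, against the distance in kb from the start of the first of the 48 genes shown. Green is nondormant and purple dormant; circles are genes of the set, filled squares other tested genes, open squares untested genes, and values under 0.01 FPKM are drawn at 0.01. On chromosomes 3 and 9 neighbouring genes at lower levels have the same direction, while on chromosome 6 the gene directly before the group has the opposite one.

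Around the 48 genes as a whole, most neighbouring genes were not called in either direction. This holds for the tested genes at large as well, of which 10.9% were called. The nearest tested genes on each side, outside the set, numbered 88. Of these, 53 (60.2%) had the lower value in nondormant meristems, against 52.8% of all tested genes, and their median log2 ratio of nondormant over dormant was -0.19, against -0.05. Of the 88, the authors' deposited table called 6 lower in nondormant meristems (6.82%, background 3.75%) and 3 higher (3.41%, background 7.17%). Around the 40 genes that stood alone, 4 of 80 nearest genes were called lower (5%) and 2 higher (2.5%). With the 5 nearest tested genes on each side, 432 in all, 54.9% had the lower value in nondormant meristems, 21 were called lower (4.86%) and 23 higher (5.32%). The counts of calls are small, and no difference from the background was tested.

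The 48 loci were short. Their span in the deposited table, from start to end with introns, had a median of 1368 bp (quartiles 975 and 2267), against 3526 bp (1822 and 5736) for all tested genes. Spans under 1 kb were found in 13 of them (27.1%, against 11.2% of the tested genes) and spans over 4 kb in 5 (10.4%, against 43.9%). The 13 include the 4 genes of the chromosome 6 group and the 2 of the chromosome 3 group. The 40 genes that stood alone had a median span of 1804 bp, nearer to that of all tested genes. The longest, on chromosome 7 between 2795443 and 2804677, spans 9234 bp and had 9.02 FPKM in nondormant against 69.0 FPKM in dormant meristems (7.65-fold). The rule does not use span. In this table both the size of the ratios, in either direction, and the share of genes that met the rule varied with span. Whether one accounts for the other was not tested.

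Genes that changed as strongly the other way were short as well. The 183 tested genes with at least 20 FPKM in nondormant meristems and a value at least 5-fold higher there than in dormant meristems had a median span of 1689 bp, and 29.0% of them spanned under 1 kb. The 624 genes with at least 20 FPKM in dormant meristems that were 2- to 5-fold lower in nondormant meristems had a median span of 2978 bp, and 15.7% of them spanned under 1 kb. Genes at least 5-fold lower in nondormant meristems but under 20 FPKM in dormant ones, 167 in number, had a median span of 1753 bp. Unlike the 48 genes, these comparison sets were drawn from all tested genes, with the stretches kept. Short span went with a large fold in either direction and is not particular to the 48 genes.

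The same was seen within 1 level limit. The 6713 tested genes with at least 20 FPKM in dormant meristems outside the stretches left out were divided into 4 equal groups by span. The shortest group, from 262 to 2257 bp, held 36 of the 48 genes (2.14% of its 1679 genes). The next groups, in order of span, held 6 (0.358%), 4 (0.238%) and 2 (0.119%). Genes of this level that were at least 5-fold higher in nondormant meristems were also most frequent in the shortest group, with 26 there (1.55%) and 2 in each of the others (0.119%). The median absolute log2 ratio over all genes of a group was 0.57 in the shortest, then 0.46, 0.41 and 0.40. Whether estimation of FPKM in short loci has a part in this was not tested.

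**Figure D4:**
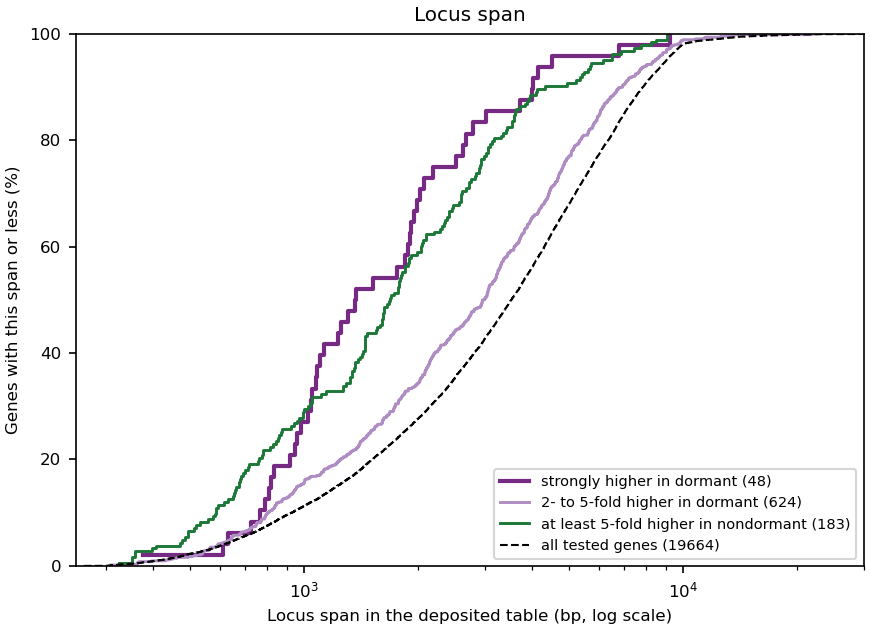
Cumulative share of genes (%) by locus span (bp, log scale) for the 48 genes, for 624 genes 2- to 5-fold lower in nondormant meristems at 20 FPKM or more in dormant meristems, for 183 genes at least 5-fold higher in nondormant meristems at 20 FPKM or more there, and for all 19664 tested genes (dashed). The 48 genes (median 1368 bp) and the genes at least 5-fold higher in nondormant meristems (median 1689 bp) lie left of the other curves over most of the range. At the shortest spans the curve of the 48 genes comes close to those other curves. Spans under 1 kb were found in 27.1% of the 48 genes, 15.7% of the 624 genes and 11.2% of all tested genes.

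Nearly all of the 48 genes had a printed interval of their own. The locus on chromosome 1 between 12804064 and 12806740 is the exception, with 14.2 FPKM in nondormant against 73.2 FPKM in dormant meristems (5.13-fold), and since another gene model has the same interval, its reads may be split between them. Shared intervals were found in 9.23% of all tested genes, 5.29% of the 624 genes with 2- to 5-fold lower nondormant values and 7.65% of the 183 genes at least 5-fold higher in nondormant meristems. With at least 20 FPKM in dormant meristems, 4 untested genes are listed, and 0 of them were 5-fold lower in nondormant meristems or at 0 there.

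The 9 genes that met the same limits in the stretches left out had a median of 7.24 FPKM in nondormant against 48.5 FPKM in dormant meristems and folds from 5.06 to 7.13. Their levels varied widely. A chromosome 3 locus between 20807645 and 20808427 had 1835 FPKM in nondormant against 10283 FPKM in dormant meristems. This was the highest dormant value of all tested genes, above the summed dormant value of the 48 genes (9980 FPKM). The median span of the 9 genes was 644 bp, and 8 of the 9 spanned under 1 kb. The 5 on chromosome 4 lay between 6511865 and 6526415 and had 3.76 to 7.24 FPKM in nondormant and 23.3 to 48.5 FPKM in dormant meristems. No fold among these 9 reached the 8-fold that 13 of the 48 genes reached or passed.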

How the data were processed

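The starting point was 1 deposited table, the authors' comparison of nondormant with dormant meristems. The deposited group values were read as FPKM, from the column layout and status words per the file headers; the unit itself is not printed there. The sources used here do not give the aligner, version, build or annotation, or how 4 samples entered each group value. Read depth per sample is unknown, so no precision from depth can be stated. The deposited p-value and q-value and the deposited test statistic, a score, were used as the authors gave them, with a call at a q of 0.05 or less. Folds and log2 ratios were recomputed from the deposited FPKM without a pseudocount. Tested genes are those with the status OK.

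Genes, comparison sets and alternatives were chosen with earlier results of these data known. Named are the 8 genes highest by dormant value, the 8 with the largest folds, those nearest to each limit, those within 100 kb of each other and those with a shared interval; further genes named for their statistic, length or neighbourhood were chosen after their values were seen. Alternatives covered the limits of the rule, the call threshold, a pseudocount of 1, median scaling and quantile normalization. Gene lists by description, fixed for the case that names were found, could not be applied. The selection and neighbour steps were tested on simulated data. Software was Python 3.11.15 with pandas 2.3.3, numpy 2.4.6, matplotlib 3.10.9 and scipy 1.17.1.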

Additional observations from a re-analysis of the deposited data

How the results depend on the processing

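The number of genes depended on the limits of the rule. It was 81 with a fold of at least 4, 13 with at least 8, 75 with a dormant value of at least 10 FPKM and 26 with at least 40 FPKM. It ran from 35 (pseudocount of 1) to 57 (stretches kept) under the other alternatives, and was 48 after quantile normalization, 47 of them the same genes. At a deposited q under 0.01, 45 of the 48 genes were called (1.56% of all tested genes were called lower in nondormant meristems at that q), a count on the contrast that chose them. With Bonferroni adjustment 0 were, as were 0 of all tested genes, because the smallest deposited p of 5e-05 cannot pass it. The median log2 ratio of -2.69 was -2.57 with a pseudocount of 1 and -2.70 after quantile normalization. With a pseudocount of 1 the single gene nearest to 0 had a log2 ratio of -2.12; the direction of each gene was set by the choice and says nothing of stability. The median log2 ratio of the nearest genes, -0.19, was -0.091 with 5 genes on each side and -0.16 with a mean of at least 1 FPKM. The median log2 ratio was also -0.16 around the 40 genes alone within 100 kb, an alternative added after seeing the data. It thus varied with the choice of neighbours, and no difference between these values was tested. The median span was 1804 bp for those 40 genes. No paired analysis was possible because the table gives no values per sample, and for the same reason leaving out each replicate was not run.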
